A study of Mus musculus with 10 samples.

Results

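Cells sorted for SSEA1 at day 9 of induced reprogramming were compared with cells sorted for the same epitope at day 6. The comparison rests on 4 of the 10 RNA-seq libraries of the series, 2 for each day, chosen by the day named in the sample titles. Both groups came from mouse embryonic fibroblasts (MEFs) of the strain C57BL/6 x 129, which carry a polycistronic OKSM cassette (Oct4, encoded by Pou5f1, Klf4, Sox2 and Myc) in the Col1a1 locus and the doxycycline-responsive transactivator M2rtTA in the Rosa26 locus. Both were kept in ESC medium with doxycycline at 1 µg/ml to induce the cassette and with ascorbic acid at 50 µg/ml. Days of induction are the recorded difference between the groups. The embryos' age and sex, and whether the 2 libraries of a day came from separate embryos or cultures, are not given in the sources used here, so p-values measure the spread between these libraries. The other libraries were uninduced MEFs in MEF medium, unsorted cells at day 3 and the unsorted embryonic stem cell (ESC) line V6.5, which was grown on feeder cells, with 2 libraries each. They entered the fit to estimate the spread and, for MEFs and ESCs, served as reference points.

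Reprogramming of fibroblasts starts with a mesenchymal-to-epithelial transition, in which cells lose the Zeb, Twist and matrix programme and gain E-cadherin, tight junctions and keratins. The pluripotency network follows in steps, with Nanog and Esrrb among the earlier endogenous genes and Dppa and Lin28 family genes among the later ones. SSEA1 is the Lewis X carbohydrate, made by fucosyltransferases such as Fut9 and Fut4, and sorting for it enriches intermediates that are on the way to pluripotency. Each sorted population is therefore the share of a culture that displayed the epitope on that day.

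The 4 libraries held 32888976 and 31856543 estimated reads at day 6 and 29585876 and 37904250 at day 9, against 29585876 to 38275024 over the series. Levels are given as CPM, the reads of a gene relative to all reads of its library, with libraries scaled by the TMM method. A gene was called when its p-value in the edgeR quasi-likelihood test, adjusted by Benjamini-Hochberg, was under 0.05 and its change at least 2-fold, a log2 fold change of 1. Of 6 sex-linked genes 0 were called. Xist stood at 1317 and 1291 CPM at day 6 and 1103 and 1047 CPM at day 9 (log2 fold change -0.28), and Ddx3y at 0.176 CPM or less in each of the 4 libraries. MEFs differed, with 0.766 CPM of Xist and 88.5 CPM of Ddx3y. Markers of other cell types gave the following sums. Macrophage markers summed to 5.35 to 9.8 CPM and stratified keratinocyte markers to 3.53 to 6.62 CPM per library, and none of the 6 erythroid markers had enough reads to be tested. Endothelial markers summed to 133.6 to 138.6 CPM at day 6 and 87.88 to 88.85 CPM at day 9, above the 9.725 and 10.08 CPM of MEFs. Most of this was the receptor gene Tek, at 110.4 and 107 CPM at day 6 and 67.7 and 69.0 CPM at day 9 and not called, and of the 7 markers Cdh5 and Kdr were lower and Vwf higher. The part of endothelial cells in the results was not tested. Neural markers summed to 28.79 to 31.72 CPM at day 6 and 44.91 to 46.42 CPM at day 9, with 2 of 7 higher. Fibroblast markers summed to 128.9 and 126.3 CPM at day 6 and 50.98 and 57.94 CPM at day 9. In MEFs the same sums were 40450 and 39040 CPM.

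From day 6 to day 9 most tested genes of epithelial adhesion, most keratins and a part of the pluripotency genes rose in the sorted cells. A part of the mesenchymal regulators (12 of 27) and collagens (8 of 22) fell, as did the fetal growth genes Igf2 and H19. Of 20165 genes tested, 1045 were higher at day 9 (5.18%) and 541 lower (2.68%), 7.87% in all. The rises were larger than the falls in size: 473 of the 1045 higher genes (45.3%) changed at least 4-fold, against 98 of the 541 lower genes (18.1%). The median log2 fold change was 1.88 among the higher genes, -1.36 among the lower ones and 0 over all tested genes. Many rises started close to the detection limit, since 639 of the higher genes (61.1%) were under 1 CPM at day 6, and 243 (23.3%) reached 10 CPM at day 9. Of the lower genes 197 (36.4%) had been at 10 CPM or more at day 6. Both libraries of a day lay apart from both of the other in 1042 of the higher and 540 of the lower genes. Over all tested genes day 9 was apart and above in 31.8% and apart and below in 33.4%. Without the 2-fold minimum the larger side changed, with 3162 genes higher (15.7%) and 3819 lower (18.9%).

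**Figure D1:**
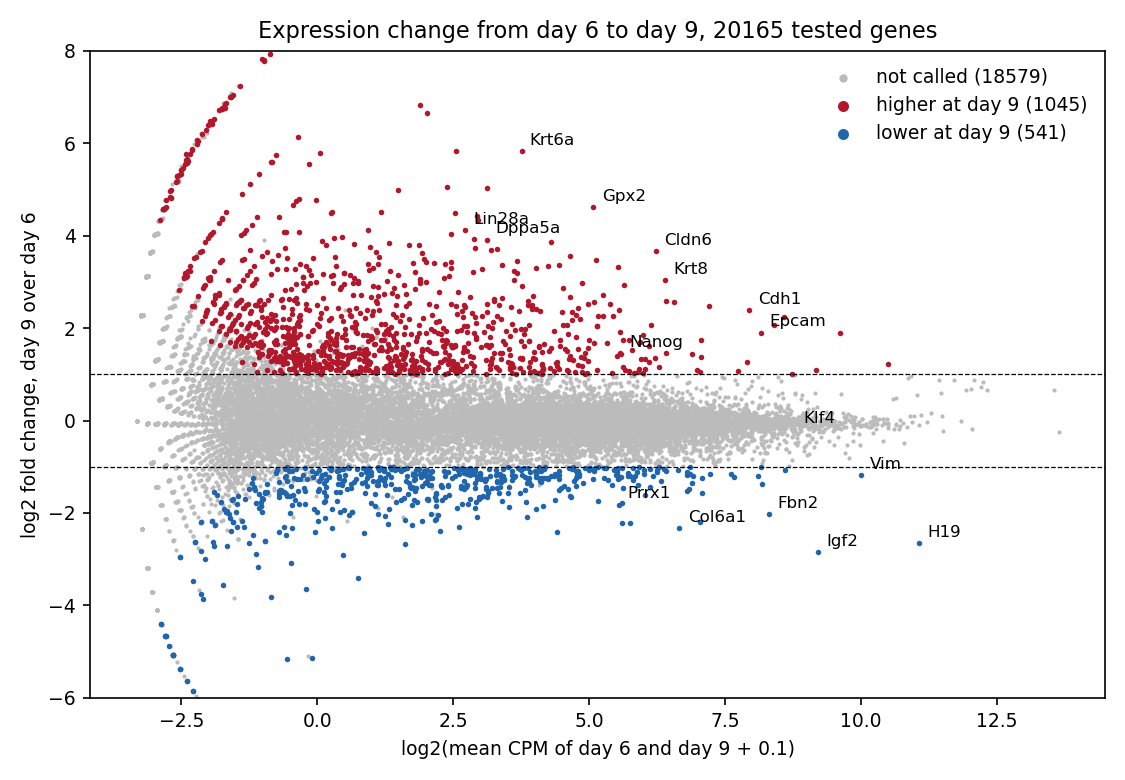
Log2 fold change of day 9 over day 6 (vertical axis) against the mean level of both days as log2(CPM + 0.1) (horizontal axis) for the 20165 tested genes, with the 1045 higher genes in red, the 541 lower genes in blue and dashed lines at the 2-fold minimum. The higher genes spread further from 0 than the lower ones, Igf2 and H19 have the highest CPM at day 6 of the genes that fell at least 4-fold, and 22 genes lie outside the axis.

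Genes of epithelial adhesion and junctions had the highest share of calls among the lists with over 10 tested genes: 20 of 25 tested members rose and 0 fell, with a median log2 fold change of 2.36. Cdh1 encodes E-cadherin, the adhesion molecule of epithelial and pluripotent cells (ENSMUSG00000000303.10, chromosome 8, 106603351 to 106670246, GRCm38). It was at 77.4 and 80.2 CPM at day 6 and 405 and 423 CPM at day 9, a 5.25-fold rise (log2 fold change 2.39, SE 0.0489, edgeR adjusted p 4.31e-13). Epcam, an epithelial surface glycoprotein (ENSMUSG00000045394.8, chromosome 17, 87635979 to 87651129), was at 121 and 119.7 CPM at day 6 and 441 and 457 CPM at day 9, a 3.74-fold rise (log2 fold change 1.90, SE 0.0336, edgeR adjusted p 2.16e-13). Both day 9 libraries of each gene lay above both day 6 libraries by far more than the distance between replicates. The day 9 values were also above the ESC means of 356 CPM for Cdh1 and 144 CPM for Epcam.

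Claudins, the membrane strands of tight junctions, rose from low levels. Cldn6, a claudin of early embryonic epithelia, was at 10.2 and 11.5 CPM at day 6 and 134 and 142 CPM at day 9, a 12.7-fold rise (log2 fold change 3.67, SE 0.0681, edgeR adjusted p 2.16e-13). Cldn7 was at 5.91 and 5.50 CPM at day 6 and 61.4 and 65.7 CPM at day 9, an 11.1-fold rise (log2 fold change 3.48, SE 0.0832, edgeR adjusted p 1.98e-12). Cldn4 was at 23.3 and 25.1 CPM at day 6 and 145 and 146 CPM at day 9 (log2 fold change 2.58), and Cldn3 at 7.11 and 6.47 CPM at day 6 and 41.3 and 45.3 CPM at day 9 (2.67). All 4 claudins stood higher at day 9 than in ESCs, which held 21.2, 7.46, 48.8 and 2.82 CPM in the same order. Desmosomal Dsp, which links keratin filaments to the membrane, was at 47.8 and 41.4 CPM at day 6 and 250.3 and 249 CPM at day 9 (log2 fold change 2.48). Jup (plakoglobin) and Cxadr (a tight junction adhesion molecule) were not called. Jup was already at 387 and 387 CPM at day 6 (log2 fold change -0.19), and Cxadr at 167 and 160.3 CPM (-0.21).

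Regulators of the epithelial state rose less uniformly, with 10 of 18 tested members higher and 0 lower (median log2 fold change 1.04), or 7 higher and 1 lower without day 9 replicate 1. Esrp1 and Esrp2, the splicing factors that set epithelial exon choice, went from 8.53 and 8.26 to 85.4 and 82.1 CPM and from 2.53 and 2.69 to 22.4 and 20.8 CPM. Their log2 fold changes were 3.32 (SE 0.0614, edgeR adjusted p 2.16e-13) and 3.05 (SE 0.124, edgeR adjusted p 3.11e-10). Rab25, a small GTPase of epithelial recycling endosomes, was at 3.94 and 3.84 CPM at day 6 and 45.3 and 47.2 CPM at day 9, an 11.9-fold rise (edgeR adjusted p 4.15e-12). Grhl3, a grainyhead factor of surface epithelium, was at 3.03 and 2.24 CPM at day 6 and 16.0 and 16.5 CPM at day 9, a 6.17-fold rise (edgeR adjusted p 1.08e-08). The related Grhl2 went from 16.6 and 15.7 to 52.0 and 51.7 CPM, while Grhl1 did not pass 2-fold (13.5 and 12.9 to 24.1 and 22.6 CPM). Ehf, an epithelial Ets factor, was already at 183 and 180.5 CPM at day 6 and Tfap2c, an AP-2 factor, at 39.1 and 38.8 CPM. Neither was called, with log2 fold changes of -0.25 and 0.31.

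Zeb and Snai factors repress epithelial genes through E-boxes of the sequence CACCTG, and KLF factors bind GC-rich elements such as GGGNGTGG, so both were searched, on both strands, in the 250 bases before the RefSeq start. A window could be assigned for 10078 of the tested genes (50.0%), with the RefSeq start within 250 bases of the start of the gene's leading coding transcript. The windows below belong to 5 epithelial genes that rose. They are printed 5′ to 3′ on the gene's strand from the RefSeq table for GRCm38.p6, with matches in capitals, and show the E-box positions that these genes differ in. Epcam spans chr17:87635729-87635978, plus strand, Rab25 chr3:88548280-88548529, minus strand, Grhl3 chr4:135573633-135573882, minus strand, Cldn4 chr5:134946935-134947184, minus strand, and Cldn3 chr5:134985964-134986213, plus strand.
Epcam: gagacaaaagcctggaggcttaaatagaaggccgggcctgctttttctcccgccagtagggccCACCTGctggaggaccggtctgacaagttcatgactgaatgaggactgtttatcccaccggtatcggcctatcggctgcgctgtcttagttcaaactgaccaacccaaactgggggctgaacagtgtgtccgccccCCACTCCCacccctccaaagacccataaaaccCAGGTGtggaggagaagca
Rab25: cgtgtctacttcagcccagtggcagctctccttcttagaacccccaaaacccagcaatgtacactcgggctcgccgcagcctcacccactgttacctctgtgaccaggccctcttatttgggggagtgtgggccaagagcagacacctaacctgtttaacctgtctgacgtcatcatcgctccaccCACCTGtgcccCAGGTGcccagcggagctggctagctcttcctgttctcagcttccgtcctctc
Grhl3: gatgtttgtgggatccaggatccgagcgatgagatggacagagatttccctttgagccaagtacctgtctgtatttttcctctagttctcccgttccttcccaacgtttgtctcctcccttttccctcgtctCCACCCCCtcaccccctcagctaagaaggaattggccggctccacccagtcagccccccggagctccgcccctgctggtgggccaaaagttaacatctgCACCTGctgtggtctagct
Cldn4: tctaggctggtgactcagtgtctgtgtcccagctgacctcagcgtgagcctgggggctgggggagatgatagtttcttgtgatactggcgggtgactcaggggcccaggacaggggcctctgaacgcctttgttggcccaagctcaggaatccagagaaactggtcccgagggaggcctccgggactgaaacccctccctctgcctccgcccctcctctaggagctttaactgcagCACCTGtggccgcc
Cldn3: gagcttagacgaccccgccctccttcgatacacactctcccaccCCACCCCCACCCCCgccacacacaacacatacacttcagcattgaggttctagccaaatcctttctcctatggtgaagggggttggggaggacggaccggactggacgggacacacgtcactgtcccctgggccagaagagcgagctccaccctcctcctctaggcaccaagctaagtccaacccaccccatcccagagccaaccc
The Epcam window holds E-boxes beginning at -187 and -19 from the start and a KLF match at -51. Rab25 has 2 E-boxes on opposite strands, at -64 and -53, Grhl3 has one at -19 with a KLF match at -118, and Cldn4 has one at -14. Cldn3 rose as well and has 0 E-boxes and 2 overlapping KLF matches, at -206 and -200.

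Over all windows 16.7% held the E-box (1684 of 10078). The share was 32.7% among genes higher at day 9 (181 of 553), 13.0% among genes lower at day 9 (35 of 269), and 58.3% among the windows of the junction, regulator and simple keratin lists (14 of 24). The KLF element was in 21.3% of all windows, 22.8% of those of higher genes, 26.8% of those of lower genes and 37.5% of those of the epithelial lists. Base composition differed too: the median number of CpG dinucleotides per window was 15 over all genes, 9 in higher genes and 11 in lower genes, with median GC contents of 59.6%, 58.4% and 58.4%. The part of this composition in the E-box shares was not tested, and a match is a description of letters, not of binding.

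Keratins, the intermediate filament proteins of epithelia, rose in both their simple and their stratified classes. All 5 tested simple epithelial keratins rose, with a median log2 fold change of 2.5, and limma on log2(TPM + 1), a scale that shrinks changes of low genes, called 3 of them. Krt23 had 0 reads in the 4 libraries and was not tested. Krt8 and Krt18 are the obligate pair of simple epithelia (ENSMUSG00000049382.9, chromosome 15, 101996698 to 102004482, and ENSMUSG00000023043.6, chromosome 15, 102028180 to 102032027, GRCm38). Krt8 was at 17.1 and 19.3 CPM at day 6 and 144 and 154 CPM at day 9, an 8.19-fold rise (log2 fold change 3.03, SE 0.0618, edgeR adjusted p 4.31e-13). Krt18 was at 3.47 and 3.30 CPM at day 6 and 32.4 and 36.3 CPM at day 9, a 10.2-fold rise (log2 fold change 3.34, SE 0.114, edgeR adjusted p 5.23e-11). Both ended above their ESC means of 11.2 and 10.6 CPM. Krt19 and Krt7, of ductal and glandular epithelia, rose 5.50-fold and 5.64-fold, to 19.8 and 19.8 CPM and 4.37 and 4.57 CPM.

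Of 8 tested stratified keratins 6 rose and 0 fell (median log2 fold change 3.64, or 3.51 with genes at 0 set to their bound), and limma on log2(TPM + 1) called 2. Krt6a, a keratin of activated and regenerating epidermis (ENSMUSG00000058354.6, chromosome 15, 101689910 to 101694307, GRCm38), was at 0.529 and 0.393 CPM at day 6 and 26.9 and 25.8 CPM at day 9, a 56.6-fold rise (log2 fold change 5.82, SE 0.215, edgeR adjusted p 1.14e-10). It was at 0.0134 CPM in ESCs and 0.0642 CPM in MEFs. Krt17, often expressed with it, was at 0.588 and 0.847 CPM at day 6 and 15.2 and 13.9 CPM at day 9, a 20.2-fold rise (log2 fold change 4.34, SE 0.191, edgeR adjusted p 6.38e-10). Krt14, the basal keratinocyte keratin, reached 2.03 and 2.25 CPM from 0 and 0.272 CPM. Krt16 had 0 reads at day 6 and 12 and 28 reads at day 9, at least 12.8-fold higher against a floor of 3 reads over the group. The floor covers counting error. Members near 0 reads at day 6, such as Krt16, could hardly have been called lower, which tilts the share toward rises. The listed keratins Krt1, Krt4 and Krt15 were not tested. Krt6a and Krt6b, and Krt14, Krt16 and Krt17, are close relatives whose reads the quantification could divide, so their separate values are uncertain.

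Genes of squamous differentiation rose in 10 of 16 tested members, with 0 lower (median log2 fold change 2.04, or 1.75 with genes at 0 set to their bound), and 4 with limma on log2(TPM + 1). Ppl and Evpl, which encode the plakins periplakin and envoplakin of the cornified envelope, rose 13.0-fold and 6.26-fold, Ppl from 1.38 and 1.39 to 17.9 and 18.3 CPM and Evpl from 2.70 and 3.05 to 17.6 and 18.5 CPM. The envelope precursor Sprr1a went from 0 reads to 9 and 25 reads, at least 10.9-fold higher against the same floor. Serpinb5 (maspin) had 2 and 0 reads at day 6 and 15 and 23 at day 9, a ratio of 18.2 (95% exact interval 4.71 to 156). The call of Serpinb5 was lost without day 6 replicate 2 (edgeR adjusted p 0.0701), and its sparse reads got no adjusted p in DESeq2. Of the 27 listed genes 16 were tested. Flg was left out because several gene identifiers share that symbol. Among the other untested members, Sprr1b, Sprr2d, Sprr2h and Cnfn had 0 reads in the 4 libraries. Members with 0 reads at day 6, such as Sprr1a, could not have been called lower, which tilts the share toward rises. The keratinocyte regulator Trp63 was not called (0.176 and 0.393 CPM at day 6 and 0.354 and 0.379 CPM at day 9, edgeR adjusted p 0.667), and involucrin (Ivl) had 0 reads in the 4 libraries. Of the 9 stratified keratinocyte markers 6 could be tested and 2, Krt5 and Krt14, were higher, and their part in the keratin rises was not tested.

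**Figure D2:**
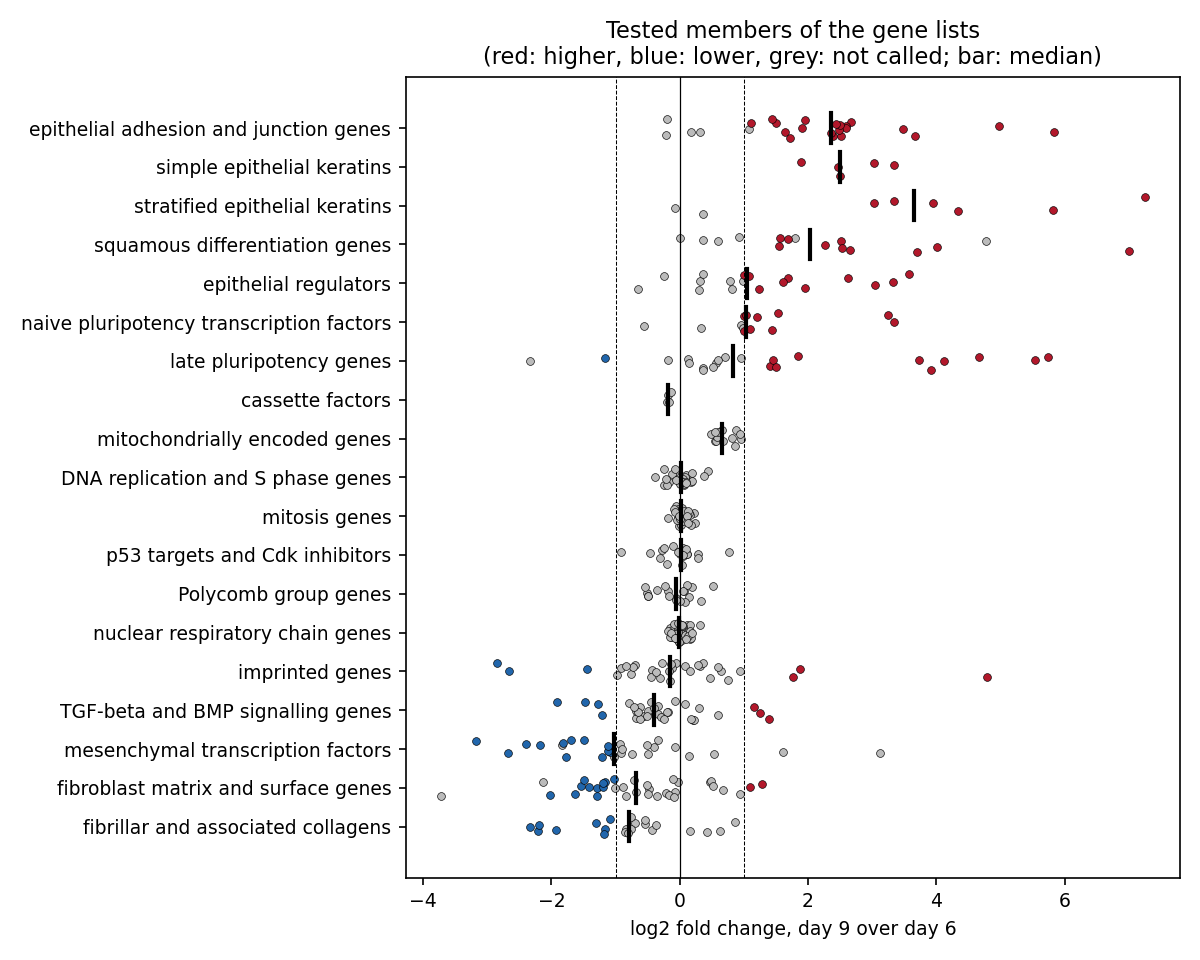
Log2 fold change of day 9 over day 6 (horizontal axis, dashed lines at 2-fold) for the tested members of 19 gene lists (rows), with higher genes in red, lower genes in blue, genes not called in grey and a bar at each median. Junction genes and keratins lie to the right, mesenchymal regulators, matrix genes and collagens to the left, and replication and mitosis genes close to 0.

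The 15 coding genes with the largest rises among those reaching 10 CPM included Krt6a, Il17re and Gpx2, and 9 of the 15 stood under 1 CPM at day 6. Il17re, an interleukin 17 receptor subunit of epithelia, was at 0.588 and 0.423 CPM at day 6 and 17.4 and 15.8 CPM at day 9, a 32.5-fold rise (edgeR adjusted p 1.03e-08). Gpx2, the epithelial glutathione peroxidase, was at 2.65 and 2.60 CPM at day 6 and 64.5 and 64.9 CPM at day 9, a 24.6-fold rise (log2 fold change 4.62, SE 0.129, edgeR adjusted p 8.03e-12). The widely expressed family members Gpx1 and Gpx4 were not called, with log2 fold changes of -0.16 and -0.11. Msln (mesothelin), Prom2 (a prominin of epithelial protrusions), Pvrl4 (nectin-4, an adhesion protein) and Prss8 (the membrane protease prostasin) rose 22.6-fold, 21.3-fold, 15.3-fold and 13.0-fold. They reached 10.8 and 10.9, 13.95 and 14.8, 13.95 and 13.5 and 15.8 and 18.0 CPM, respectively. H60c, a ligand of the natural killer receptor NKG2D, rose 16.5-fold to 10.7 and 9.60 CPM. Il17re, Prom2, Pvrl4 and H60c were at 0.710, 0.385, 2.09 and 0.186 CPM in ESCs.

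Pluripotency genes rose in part. Of 13 tested naive pluripotency transcription factors 9 were higher and 0 lower, with a median log2 fold change of 1.03. Nanog, a core factor of the network (ENSMUSG00000012396.10, chromosome 6, 122707489 to 122714633, GRCm38), was at 24.99 and 26.6 CPM at day 6 and 69.2 and 71.2 CPM at day 9, a 2.72-fold rise (log2 fold change 1.45, SE 0.0769, edgeR adjusted p 4.1e-09). ESCs held 525 CPM. Esrrb, an orphan nuclear receptor of naive cells, was at 16.6 and 17.1 CPM at day 6 and 37.5 and 39.5 CPM at day 9, a 2.29-fold rise (log2 fold change 1.20, SE 0.0524, edgeR adjusted p 6.1e-10), against 420.5 CPM in ESCs. Zfp42 (Rex1) was at 0.823 and 0.968 CPM at day 6 and 2.70 and 2.53 CPM at day 9 and thus remained near the lower end of detection. Prdm14 and Tcl1, a repressor of differentiation and an Akt coactivator, went from 0.0882 and 0.212 to 1.35 and 1.54 CPM and from 0.0882 and 0.0302 to 0.611 and 0.657 CPM. The list's count was sensitive to single libraries, with 6 to 10 members higher when 1 of the 4 libraries was left out (6 without day 9 replicate 1), and limma on log2(TPM + 1) called 1 of the 13. Klf2, Klf5, Tfcp2l1 and Sall4 had log2 fold changes between 1.00 and 1.09. Nr5a2, a nuclear receptor that can activate Pou5f1, was just under 2-fold (49.1 and 36.9 CPM at day 6 and 86.3 and 83.9 CPM at day 9) and above its ESC mean of 35.7 CPM on both days. Tbx3, the member with a negative change, was not called (2.94 and 2.00 CPM at day 6 and 1.29 and 2.00 CPM at day 9).

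Of 22 tested late pluripotency genes 10 were higher and 1 lower (median log2 fold change 0.83). Lin28a, an RNA-binding protein that blocks let-7 maturation (ENSMUSG00000050966.7, chromosome 4, 134003330 to 134018841, GRCm38), was at 0.882 and 0.514 CPM at day 6 and 12.02 and 12.3 CPM at day 9, a 17.3-fold rise (log2 fold change 4.11, SE 0.147, edgeR adjusted p 8.38e-11). Dppa5a, an oocyte and stem cell RNA-binding protein, was at 1.15 and 0.968 CPM at day 6 and 16.2 and 15.9 CPM at day 9, a 15.1-fold rise (log2 fold change 3.92, SE 0.180, edgeR adjusted p 1.03e-09). ESCs held 209 and 1419 CPM of the pair, so the large folds left both well short of the stem cell level. Dppa4, Dppa3 and Dnmt3l, a chromatin protein, a maternal methylation regulator and the cofactor of the de novo methyltransferases, had 1 to 3 reads in total at day 6. Their ratios of day 9 to day 6 were 67.2 (95% exact interval 11.7 to 2690.0), 52.3 (95% exact interval 14.1 to 437) and 27.8 (95% exact interval 9.21 to 138). Members this low at day 6 could hardly have been called lower, which tilts the share toward rises. Tdgf1, the Nodal co-receptor Cripto, rose from 27.9 and 27.5 to 99.6 and 98.9 CPM, and Utf1, a chromatin-associated stem cell factor, from 16.9 and 15.4 to 42.5 and 46.3 CPM. Reads of Tdgf1 could be divided with its processed pseudogene Tdgf1-ps1, which was at 1.85 and 3.15 and then 10.4 and 10.2 CPM. Jam2, a junctional adhesion molecule, was the member that fell, from 205 and 207 to 90.5 and 93.9 CPM (log2 fold change -1.16, SE 0.0341, edgeR adjusted p 1.38e-11). The stem cell genes L1td1, Fgf4 and Tdh were not called (-0.18, 0.14 and 0.14 on the log2 scale). The 8 pluripotent stem cell markers are all members of the naive or the late list, so their rise is not separate evidence. All 8 were higher. They summed to 89.25 and 88.95 CPM at day 6, 281.6 and 288.0 CPM at day 9, and 3926 and 4008 CPM in ESCs. The whole late list changed little in sum, from 1191 and 1159 to 1237 and 1261 CPM. The naive list went from 220.1 and 206.3 to 432.7 and 432.0 CPM.

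The cassette factors did not rise. Their reads combine cassette and endogenous transcripts. Klf4 was at 474 and 462 CPM at day 6 and 402 and 419 CPM at day 9, and Myc at 334 and 325 CPM at day 6 and 278 and 294 CPM at day 9. Pou5f1 was at 323 and 296 CPM at day 6 and 271 and 278 CPM at day 9, and Sox2 at 304 and 302 CPM at day 6 and 271 and 279.9 CPM at day 9. Day 9 lay below day 6 in every library of all 4 factors, but the log2 fold changes were -0.19, -0.20, -0.17 and -0.14. Although 0 of 4 reached 2-fold, all 4 passed as lower without the 2-fold minimum (edgeR adjusted p 0.000281 to 0.0163). ESCs held 1153 CPM of Pou5f1 and 18.7 CPM of Myc.

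**Figure D3:**
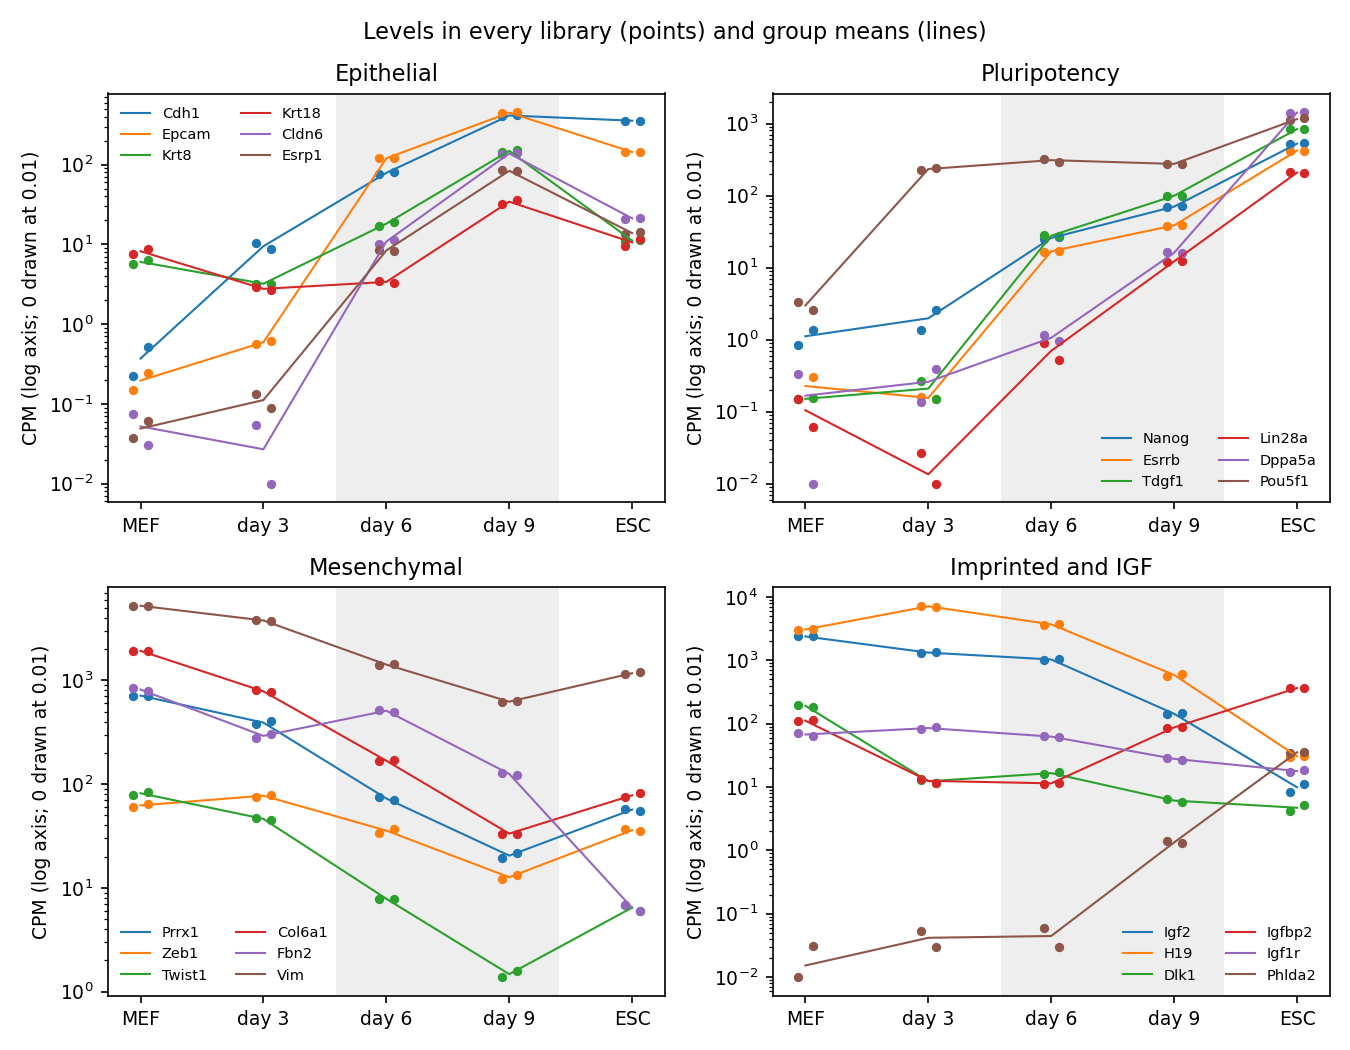
CPM (log axis, 0 drawn at 0.01) of 24 genes in 4 panels at each stage, with a point per library, a line through the group means and the day 6 to day 9 interval shaded. Epithelial genes climbed from day 6 to day 9 and all 6 were above the ESC mean, pluripotency genes other than Pou5f1 climbed but stayed below it, and Igf2 and H19 dropped.

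Mesenchymal transcription factors fell in 12 of 27 tested members and rose in 0, with a median log2 fold change of -1.03; limma on log2(TPM + 1) called 4 lower. Twist1, a helix-loop-helix factor of mesoderm and neural crest, was at 7.82 and 7.89 CPM at day 6 and 1.38 and 1.57 CPM at day 9, a 5.28-fold fall (log2 fold change -2.40, SE 0.124, edgeR adjusted p 3e-09). Zeb1 and Zeb2, zinc-finger repressors of epithelial genes, were lower at day 9. Zeb1 was at 34.2 and 37.2 CPM at day 6 and 12.1 and 13.3 CPM at day 9 (log2 fold change -1.49, SE 0.0680, edgeR adjusted p 9.77e-10). Zeb2 was at 6.00 and 6.17 CPM at day 6 and 2.09 and 1.72 CPM at day 9 (log2 fold change -1.69, SE 0.122, edgeR adjusted p 9.09e-08). Both day 9 libraries lay below both day 6 libraries for Zeb1 and Zeb2, as in 33.4% of all tested genes. Each was below its ESC mean at day 9 (36.0 CPM for Zeb1 and 16.9 CPM for Zeb2). ESCs were grown on feeder cells, and the part of feeder RNA in these means was not tested. Meox2, a homeobox factor of mesoderm, fell 6.39-fold from 4.56 and 5.72 to 0.482 and 1.06 CPM. Hand2 and Foxf1, factors of limb and splanchnic mesoderm, were already under 1 CPM at day 6, and the call of Foxf1 was lost without day 6 replicate 2 (edgeR adjusted p 0.107) and without day 9 replicate 1 (0.0877). Prrx1, the fibroblast marker with the most reads at day 6, went from 74.4 and 71.1 to 19.3 and 21.6 CPM, and Snai1 and Snai2 did not pass the thresholds (log2 fold changes -0.93 and -0.91).

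Collagens fell in 8 of 22 tested members and rose in 0 (median log2 fold change -0.79), with 3 lower in limma on log2(TPM + 1). All 3 chains of collagen VI, a microfibrillar collagen of connective tissue, were among the 15 largest falls of called coding genes with 10 CPM or more at day 6. Col6a1 was at 166 and 170.4 CPM at day 6 and 33.4 and 33.3 CPM at day 9, a 5.04-fold fall (log2 fold change -2.33, SE 0.0443, edgeR adjusted p 2.5e-13). Col6a2 was at 210.0 and 219 CPM at day 6 and 44.7 and 49.4 CPM at day 9, a 4.55-fold fall (log2 fold change -2.19, SE 0.0567, edgeR adjusted p 4.15e-12). Col6a3 was at 25.2 and 25.6 CPM at day 6 and 6.91 and 6.52 CPM at day 9, a 3.79-fold fall (log2 fold change -1.92, SE 0.0590, edgeR adjusted p 2.04e-11). Col6a1 and Col6a2 are neighbours on chromosome 10. Col15a1, a basement-membrane zone collagen, fell 4.63-fold to 18.6 and 19.6 CPM. Col1a1, a chain of the main fibrillar collagen of fibroblasts, was already low at day 6. It was at 8.23 and 8.47 CPM at day 6 and 5.14 and 6.21 CPM at day 9 and did not pass 2-fold. MEFs held 14972 CPM of it.

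Of 35 tested fibroblast matrix and surface genes 11 were lower and 2 higher (median log2 fold change -0.67, or -0.52 with genes at 0 set to their bound), and limma on log2(TPM + 1) called 5 lower and 1 higher. Fbn2 and Fbn1, the fibrillins of elastic microfibrils, fell 4.06-fold and 2.80-fold. Fbn2 was at 523 and 497 CPM at day 6 and 129 and 122 CPM at day 9 (log2 fold change -2.02, SE 0.0525, edgeR adjusted p 4.15e-12), and Fbn1 at 174 and 163 CPM at day 6 and 59.0 and 61.2 CPM at day 9 (log2 fold change -1.49, SE 0.0424, edgeR adjusted p 9.71e-12). Fbln5, an elastogenic fibulin, fell 3.11-fold to 3.21 and 4.65 CPM, and Cdh2, the mesenchymal N-cadherin, fell 2.89-fold to 4.08 and 4.77 CPM. Vim, the intermediate filament gene of mesenchymal cells, was at 1415 and 1427 CPM at day 6 and 619.6 and 628 CPM at day 9 (log2 fold change -1.19, SE 0.0299, edgeR adjusted p 3.23e-12). Thbs1 (thrombospondin 1) went the other way, from 79.1 and 80.4 to 173 and 169 CPM (log2 fold change 1.10, SE 0.0293, edgeR adjusted p 5.2e-12). Lox, the collagen cross-linking oxidase, was higher through day 9 replicate 2 (0.588 and 0.726 CPM at day 6 and 1.03 and 2.07 CPM at day 9), and without that library the log2 fold change was 0.64 and not called (edgeR adjusted p 0.159).

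The 8 fibroblast markers are all members of the mesenchymal factor, collagen or matrix lists above, so their fall is not separate evidence. Their sum was 126.3 to 128.9 CPM at day 6 and 50.98 to 57.94 CPM at day 9. Most of the drop was Prrx1, with 2530 and 2352 reads at day 6 and 601 and 857 at day 9. Of the 8 markers 2 were called lower, Prrx1 and Col1a2, and 0 higher, with 6 changes negative and 2 positive. The positive ones were Col3a1, with 63 and 54 reads at day 6 and 70 and 95 at day 9, and Pdgfra, with 6 and 7 and then 9 and 13. Thy1 was at 9.55 and 11.3 CPM at day 6 and 8.68 and 10.4 CPM at day 9, and Pdgfra and Twist2 stood under 1 CPM in all 4 libraries. The part of residual fibroblasts in the falls was not tested. In sorted bulk cells fewer cells of a type and less RNA per cell cannot be told apart. Of 15 tested contractile genes 1 was lower (6.67%, against 2.68% of all tested genes) and 0 higher. The lower gene was the myosin light chain Myl9 (23.9 and 24.0 to 10.8 and 12.2 CPM), and its call was lost without day 9 replicate 1 (log2 fold change -0.97).

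Other large falls belonged to no single list. Pde2a, a cyclic nucleotide phosphodiesterase, was at 36.6 and 34.2 CPM at day 6 and 7.04 and 6.39 CPM at day 9, a 5.30-fold fall (log2 fold change -2.41, SE 0.0840, edgeR adjusted p 6.31e-11). Il1rn, the interleukin 1 receptor antagonist, fell 4.97-fold from 9.58 and 10.4 to 2.03 and 2.00 CPM. Rap1gap2 (a GTPase-activating protein that acts on Rap1) fell 4.64-fold to 18.3 and 16.3 CPM. Tshr (the thyrotropin receptor) and Sptssb (a serine palmitoyltransferase subunit) fell 4.27-fold and 4.23-fold, and both were under 1 CPM in MEFs and in ESCs. Ebf3, an early B-cell factor family regulator of mesoderm, and the autophagy receptor Optn fell 3.66-fold and 3.63-fold. Samd9l, an interferon-inducible gene, fell 3.71-fold to 3.21 and 3.06 CPM. One of the 3 gene identifiers that carry the symbol Dst had the largest fitted fall (log2 fold change -9.34). It rested on 1 library, with 775 reads in day 6 replicate 1 and 5 in day 6 replicate 2, and was not called without day 6 replicate 1 (-3.12, edgeR adjusted p 0.583). The main Dst identifier, a cytoskeletal linker gene with 17074 to 21261 reads per library, changed by -0.05.

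Igf2 and H19, neighbouring imprinted genes on chromosome 7, had the highest CPM at day 6 of the genes that fell at least 4-fold. Igf2, a fetal growth factor expressed from the paternal allele (ENSMUSG00000048583.14, chromosome 7, 142650766 to 142666816, GRCm38), was at 1027 and 1036 CPM at day 6 and 141 and 145 CPM at day 9, a 7.20-fold fall (log2 fold change -2.85, SE 0.0528, edgeR adjusted p 2.16e-13). H19, a non-coding RNA expressed from the maternal allele (ENSMUSG00000000031.13, chromosome 7, 142575529 to 142578143), was at 3670.2 and 3724 CPM at day 6 and 573 and 603 CPM at day 9, a 6.29-fold fall (log2 fold change -2.65, SE 0.0349, edgeR adjusted p 1.4e-14). Replicates differed by a few percent, and both genes stayed above their ESC means of 9.89 and 30.6 CPM. Dlk1, a paternally expressed Notch ligand homologue, fell 2.73-fold from 16.2 and 17.0 to 6.46 and 5.76 CPM (edgeR adjusted p 5.42e-08). The list as a whole did not go one way. Of 32 tested imprinted genes 3 were lower and 3 higher (9.38% each), against 2.68% and 5.18% of all tested genes. The median log2 fold change was -0.15. Phlda2, a maternally expressed placental growth inhibitor, had 2 and 1 reads at day 6 and 43 and 51 at day 9, a ratio of 30.1 (95% exact interval 9.98 to 148). Slc22a18, its neighbour, went from 0.294 and 0.302 to 1.06 and 1.14 CPM. Zim1, an imprinted zinc-finger gene, was called higher from 0.118 and 0.151 to 0.386 and 0.530 CPM. Its call was lost without day 6 replicate 1, day 6 replicate 2 or day 9 replicate 2 (edgeR adjusted p 0.0995 to 0.184). Meg3 and Rian, non-coding RNAs of the Dlk1 domain, were not called, with log2 fold changes of -0.31 and -0.37.

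Of 16 tested IGF signalling genes 3 were lower (18.8%) and 1 higher (6.25%), against 2.68% and 5.18% of all tested genes. The median log2 fold change was -0.15, and Igf2, described above, was among the lower genes. The receptor gene Igf1r fell 2.25-fold, from 64.2 and 60.8 to 28.9 and 26.8 CPM (edgeR adjusted p 7.1e-09), and the binding protein gene Igfbp3 fell 2.23-fold, from 158 and 159.5 to 70.2 and 72.4 CPM (edgeR adjusted p 4.4e-11). Igfbp2, another binding protein, rose from 11.3 and 11.6 to 85.6 and 89.2 CPM (log2 fold change 2.93, SE 0.0589, edgeR adjusted p 4.31e-13). ESCs held 366 CPM of Igfbp2. Igf2r, the clearance receptor for IGF2, was at 97.4 and 96.3 CPM at day 6 and 93.0 and 93.7 CPM at day 9 and was not called.

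In the TGF-beta and BMP list 4 of 33 tested members were lower (12.1%) and 3 higher (9.09%), against 2.68% and 5.18% of all tested genes. The median log2 fold change was -0.40, and limma on log2(TPM + 1) called 1 lower and 0 higher. The ligand Tgfb2 fell 2.42-fold from 29.96 and 31.2 to 12.2 and 13.0 CPM (edgeR adjusted p 1.42e-09), and its target Tgfbi fell 2.31-fold to 3.44 and 3.43 CPM. Inhba, the activin A subunit, and Grem1, a BMP antagonist, fell 2.77-fold and 3.78-fold. The activin B subunit Inhbb rose 2.37-fold to 16.6 and 16.4 CPM. The receptors Tgfbr1 and Tgfbr2 were not called, with log2 fold changes of -0.52 and -0.71. Bmp7, a BMP ligand of epithelia, went from 0.911 and 0.484 to 1.61 and 2.07 CPM and lost its call without day 6 replicate 2 (edgeR adjusted p 0.0603).

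Of 34 tested Wnt pathway genes 6 were higher (17.6%) and 1 lower (2.94%), against 5.18% and 2.68% of all tested genes. The median log2 fold change was 0.29, or 0.13 with genes at 0 set to their bound, and limma on log2(TPM + 1) called 0. With 1 library left out, 4 to 6 were higher and 0 or 1 lower. Wnt7b and Wnt4, Wnt ligands of epithelia, rose 11.7-fold and 4.22-fold, to 4.05 and 3.69 and 3.38 and 3.56 CPM. The receptor Fzd10 rose 5.41-fold to 0.289 and 0.682 CPM, a call lost without day 9 replicate 2 (edgeR adjusted p 0.0838). Wnt7a had 1 and 1 reads at day 6 and 7 and 19 at day 9, a ratio of 12.5 (95% exact interval 3.12 to 108), and its call was lost without day 6 replicate 1, day 6 replicate 2 or day 9 replicate 2 (edgeR adjusted p 0.0783 to 0.132). Lgr5, a stem cell receptor for R-spondins, fell from 0.353 and 0.605 to 0.225 and 0.152 CPM and lost its call without day 6 replicate 2 or day 9 replicate 2 (0.248 and 0.147). The target gene Axin2 was not called (0.265 and 0.272 CPM at day 6 and 0.450 and 0.429 CPM at day 9). In the FGF list 2 of 25 tested members were higher (8.0%) and 1 lower (4.0%), against 5.18% and 2.68% of all tested genes. Fgfbp1, a carrier that releases FGFs from matrix, rose 3.85-fold from 8.47 and 8.41 to 32.4 and 32.5 CPM (edgeR adjusted p 4.35e-09), the ligand gene Fgf17 reached 0.707 and 0.934 CPM, and the receptor Fgfr3 fell 2.28-fold to 2.25 and 1.87 CPM. Of 11 AP-1 and related genes 1 was called higher (9.09%, against 5.18% of all tested genes). It was Atf3, a stress-induced factor, with 3.35 and 3.39 CPM at day 6 and 16.5 and 15.9 CPM at day 9 (log2 fold change 2.26, SE 0.137, edgeR adjusted p 1.49e-08). Jun was at 189.6 and 186 CPM at day 6 and 359.8 and 362 CPM at day 9, a log2 fold change of 0.94 that did not reach 2-fold.

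Cell cycle genes changed by less than 2-fold. Over all tested genes 7.87% were called, so lists of this size could hold few calls. Of 30 tested replication genes and 28 tested mitosis genes 0 were called in either direction, with median log2 fold changes of 0.03 in both lists and ranges of -0.38 to 0.44 and -0.18 to 0.23. At an unadjusted p under 0.05 in edgeR, 16 of the replication and 11 of the mitosis genes differed by these small amounts. Pcna was at 246 and 244 CPM at day 6 and 243 and 246 CPM at day 9, and Top2a at 622 and 585 CPM at day 6 and 595 and 603 CPM at day 9. Of 21 p53 targets and Cdk inhibitors 0 were called (12 at an unadjusted p under 0.05), among them Cdkn1a (p21), at 221 and 221 CPM at day 6 and 221 and 230.0 CPM at day 9, and Cdkn2a, at 69.0 and 71.2 CPM at day 6 and 68.0 and 72.2 CPM at day 9. Cdkn2c, a p18 inhibitor of Cdk4, had the largest change of the list, with a log2 fold change of -0.92, and 1 gene of the list was called lower without day 9 replicate 2. Of 19 tested Polycomb genes 0 were called (14 at an unadjusted p under 0.05), with log2 fold changes from -0.55 to 0.51. Without the 2-fold minimum, edgeR passed 6 replication genes as higher and 6 as lower, and 8 and 2 mitosis genes. For p53 targets and Cdk inhibitors these numbers were 5 and 7, and for Polycomb genes 5 and 8. With the minimum, DESeq2 and limma also called 0 genes of these lists in the full set of libraries. The same held for the cassette and both respiratory lists. Among 13 DNA methylation and demethylation enzymes 1 was called higher, Dnmt3l (7.69%, against 5.18% of all tested genes). Tet1, a 5-methylcytosine dioxygenase, and Dnmt3b, a de novo methyltransferase, stayed under 2-fold. Tet1 was at 51.4 and 46.6 CPM at day 6 and 81.6 and 78.4 CPM at day 9 (log2 fold change 0.71), and Dnmt3b at 30.8 and 32.6 CPM at day 6 and 46.8 and 47.3 CPM at day 9 (0.57).

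Transcripts of the mitochondrial genome were higher at day 9 in every library, although 0 of 13 reached 2-fold in the edgeR fit to all libraries. Without the 2-fold minimum all 13 passed, and 5 passed a test against a 1.5-fold change. Leaving out 1 library gave 1 call without day 6 replicate 1, 1 without day 6 replicate 2 and 2 without day 9 replicate 2. Their log2 fold changes ranged from 0.49 (mt-Nd5) to 0.96 (mt-Co2), with a median of 0.66. All genes with a mitochondrial symbol, the 13 and any others, took 3.07% and 3.15% of the reads at day 6 and 5.32% and 5.0% at day 9. The part of mitochondrial reads in the other changes was not tested. Of 48 tested nuclear genes of the respiratory chain 0 were called (17 at an unadjusted p under 0.05), with a median of -0.01 and a range of -0.18 to 0.32. Without the 2-fold minimum 7 of these nuclear genes passed as higher and 6 as lower. In glycolysis 1 of 21 tested genes was called higher (4.76%, against 5.18% of all tested genes). It was the lactate exporter Slc16a3, which rose 2.53-fold from 5.67 and 5.93 to 14.5 and 14.8 CPM (edgeR adjusted p 3.22e-08). Of 41 glutathione and redox genes 3 were higher (7.32%) and 1 lower (2.44%), near the 5.18% and 2.68% of all tested genes. Gsta3, a glutathione transferase, rose 3.33-fold to 32.6 and 35.0 CPM, and the cystine transporter Slc7a11 fell 2.34-fold, from 288 and 277 to 119 and 122 CPM (log2 fold change -1.23, SE 0.0449, edgeR adjusted p 1.01e-10). The third higher gene, extracellular Sod3, rested on 5 and 1 reads at day 6 and lost its call without day 6 replicate 2 (edgeR adjusted p 0.0958) or day 9 replicate 2 (0.0669). In the hypoxia list 4 of 19 were higher (21.1%, against 5.18% of all tested genes) and 0 lower. They were led by Ndufa4l2, a respiratory chain subunit homologue, which went from 0.265 and 0.242 to 2.44 and 2.25 CPM. Next was the carbonic anhydrase Car12 (2.26 and 2.18 to 7.52 and 7.35 CPM). Vegfa, the angiogenic target of hypoxia factors, was not called (6.59 and 6.20 CPM at day 6 and 9.61 and 8.99 CPM at day 9), and Adm (adrenomedullin, 0.323 and 0.514 to 0.900 and 1.09 CPM) lost its call without day 6 replicate 1 or day 9 replicate 2 (edgeR adjusted p 0.101 and 0.0818). Of 27 tested interferon response genes 1 was lower (3.7%, against 2.68% of all tested genes) and 0 higher. The lower gene was Ifit2, an antiviral effector, which went from 1.499 and 1.18 to 0.482 and 0.631 CPM.

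Genes of extraembryonic lineages split, with 21.1% of the tested members higher and 10.5% lower, against 5.18% and 2.68% of all tested genes. Of 19 tested members 4 were higher and 2 lower, or 4 and 4 without day 9 replicate 1. Elf5, an Ets factor of trophoblast and glandular epithelium (ENSMUSG00000027186.12, chromosome 2, 103411688 to 103450989, GRCm38), was at 1.09 and 0.998 CPM at day 6 and 9.03 and 8.61 CPM at day 9, an 8.43-fold rise (log2 fold change 3.08, SE 0.221, edgeR adjusted p 8.33e-08). The X-linked homeobox genes Rhox6 and Rhox9 went from 2.70 and 2.27 to 23.4 and 22.4 CPM and from 0.294 and 0.212 to 3.25 and 3.69 CPM, and Rhox5 from 0.353 and 0.3327 to 1.29 and 1.62 CPM. Rhox genes are a cluster of similar sequences, so reads could be divided among them. The trophoblast markers summed to 1.323 and 1.24 CPM at day 6 and 9.483 and 9.092 CPM at day 9, of which Elf5 was the largest part and the 1 of 7 that was called. Cdx2, Prl3d1 and Tpbpa had 0 reads in the 4 libraries, and Eomes and Hand1 stood under 1 CPM. Gata6 and Dab2, a factor and an adaptor protein of primitive endoderm, fell 3.19-fold and 3.09-fold, to 1.25 and 1.52 and 11.2 and 13.3 CPM, and Sox17 and Sox7 were under 1 CPM on both days. The primitive endoderm markers summed to 40.72 and 45.13 CPM at day 6 and 12.83 and 15.18 CPM at day 9, and whether they mark a separate cell type in the sort was not tested.

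Surface markers used to stage reprogramming changed in both directions, with 5 of 19 tested members higher (26.3%) and 2 lower (10.5%). Of all tested genes 5.18% were higher and 2.68% lower. Besides Epcam, the higher ones were Cd24a, Alpl, Kit and Cdh3. Cd24a, an epithelial sialoglycoprotein, was at 139 and 141 CPM at day 6 and 335 and 342 CPM at day 9 (log2 fold change 1.27, SE 0.0387, edgeR adjusted p 1.9e-11). Alpl, the alkaline phosphatase of pluripotent cells, was at 24.8 and 25.5 CPM at day 6 and 67.5 and 71.5 CPM at day 9 (log2 fold change 1.47, SE 0.0753, edgeR adjusted p 2.85e-09), and the receptor tyrosine kinase Kit at 17.7 and 18.0 CPM at day 6 and 41.6 and 39.5 CPM at day 9. Cdh3 (P-cadherin) rose 6.38-fold to 3.25 and 3.26 CPM. Cd44, a hyaluronan receptor, fell 2.45-fold from 58.1 and 57.8 to 23.1 and 24.1 CPM, and Cd34, a sialomucin of progenitor cells, fell 2.47-fold from 111 and 118 to 45.6 and 46.8 CPM. Pecam1, an adhesion molecule that was at 99.0 CPM in ESCs, was not called (1.26 and 1.39 CPM at day 6 and 1.48 and 1.67 CPM at day 9). Of 12 tested genes that build the sorted epitope and related glycans 1 rose and 1 fell (8.33% each, against 5.18% and 2.68% of all tested genes). Fut9, the main fucosyltransferase of Lewis X, was at 74.3 and 67.3 CPM at day 6 and 72.1 and 67.2 CPM at day 9 (log2 fold change -0.03), and Fut4 at 2.03 and 1.72 CPM at day 6 and 1.22 and 1.09 CPM at day 9. The sialyltransferase St3gal6, which competes for the same glycan precursors, fell 2.37-fold from 20.99 and 20.3 to 8.52 and 8.87 CPM (edgeR adjusted p 3.02e-07), and B3gnt3, an extender of glycan chains, rose from 0.0882 and 0.0907 to 0.418 and 0.379 CPM.

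The ESC and MEF libraries share no sample with the compared days and gave a reference for the direction of change. Among genes higher at day 9, 641 of 1045 (61.3%) were called higher in ESCs than in MEFs and 161 (15.4%) lower, against 25.5% and 20.6% of all tested genes (46.1% in either direction). Among genes lower at day 9, 344 of 541 (63.6%) were lower in ESCs and 60 (11.1%) higher. Most calls thus lay in the direction of the ESC and MEF difference, while 243 higher genes and 137 lower genes were not called between these references. As a share of the other list, the day 9 rises covered 12.5% of the 5142 genes higher in ESCs, and the day 9 falls covered 8.29% of the 4148 genes lower in ESCs. Krt6a and Spp1 belong to the rises without a call between ESCs and MEFs, and Krt19, Cdh3 and Ndufa4l2 to those that were lower in ESCs. ESCs were grown on feeder cells and their fibroblast markers summed to 3342 and 3421 CPM, and the part of feeder RNA in the ESC levels was not tested. The MEF and ESC libraries also carried Y-linked transcripts that were near 0 at day 6 and day 9.

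**Figure D4:**
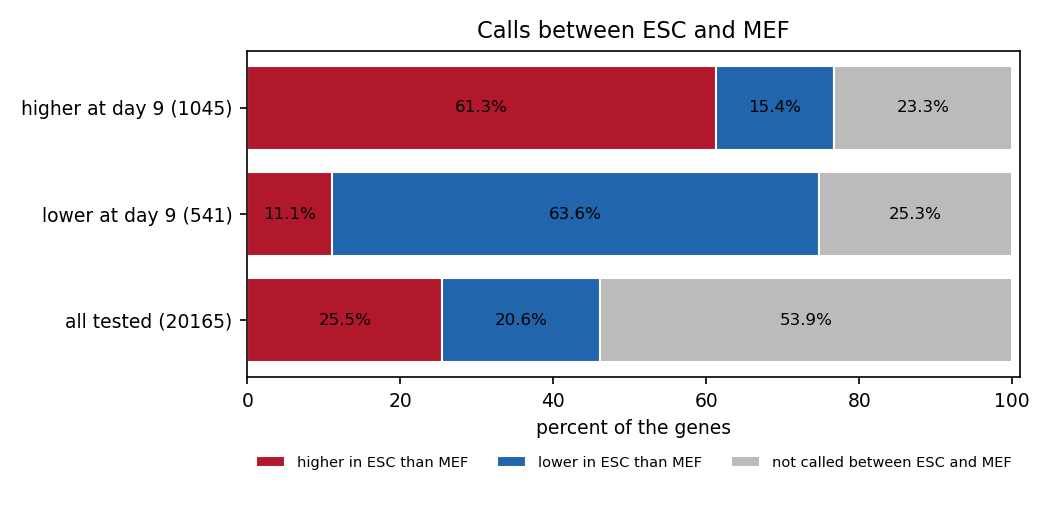
Share (percent of genes, horizontal axis) of the 1045 genes higher at day 9, the 541 lower at day 9 and all 20165 tested genes that were higher (red), lower (blue) or not called (grey) in ESCs against MEFs. The higher genes held 61.3% ESC-higher genes and the lower genes 63.6% ESC-lower genes, against 25.5% and 20.6% of all tested genes.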

How the data were processed

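Poly(A) RNA of 10 libraries (5 groups of 2) was read with stranded single-end reads of 50 nt. Per the submitters' processing notes, the authors quantified transcripts with Salmon 0.8.2 and used mm10; the annotation release is not given in the sources used here. The deposited tables give estimated counts and TPM, both per transcript, for 109617 transcripts. Estimated counts were summed over 45706 genes and rounded to whole reads. After edgeR's filter on low counts (minimum 10, total 15), 20165 genes were tested in R 4.3.3 with edgeR 4.0.16 (TMM, quasi-likelihood test over all 10 libraries, day 9 minus day 6), with limma 3.58.1 on TPM and DESeq2 1.42.0 as alternatives. The script was tested on simulated data: edgeR recovered 100% of 100 genes changed by a log2 fold change of 1.5 in this comparison, with 0 false calls. Only genes above a minimum mean count were changed there, and all genes had the same simulated spread. Recovery of sparse or more variable genes was therefore not tested. An exact permutation test of 2 against 2 libraries cannot give p under 0.333, so none was used. Replicates of a group differed beyond counting noise (chi-square per degree of freedom 2.78 to 5.05). Gene coordinates are from GENCODE M21 (GRCm38), matched for 98.8% of genes by identifier. Intervals and floors cover counting error only.

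The 34 gene lists and the members were chosen with earlier results of these data known. Named genes are called coding genes with a mean of 10 CPM or more in the higher group, 15 ranked by rise and 15 by fall, a panel of 28 genes, and up to 4 called members each way of each list with defining members at 0. Other genes named in the text were chosen after their values were seen. Some named genes are not reported here.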

Additional observations from a re-analysis of the deposited data

How the results depend on the processing

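The 1045 higher and 541 lower genes became 477 and 298 when only genes with 10 CPM in 2 libraries were tested, 229 and 153 with limma on log2(TPM + 1), 572 higher with limma on log2(TPM + 0.1), and 3162 and 3819 with no fold minimum. Genes higher at day 9 and in ESCs (641) numbered 309, 113, 330 and 2043 in the same order, and those higher at day 9 but lower in ESCs (161) numbered 86, 15, 67 and 780. Genes lower at day 9 and in ESCs (344) numbered 84 with limma on log2(TPM + 1) and 2732 with no fold minimum. Those lower at day 9 but higher in ESCs (60) numbered 34 with DESeq2, 16, 7 and 32 under the stricter filter and the 2 limma settings, and 737 with no fold minimum. The stricter filter tests fewer genes and a pseudocount shrinks folds of low genes; beyond that, the cause was not tested. With 1 of the 4 libraries left out, 873 to 924 genes were higher and 475 to 513 lower, and the ESC and MEF counts were 534 to 556, 139 to 158, 324 to 332 and 40 to 54 in the order above. DESeq2 shared 810 of the higher and 449 of the lower calls. Of the 128 named genes, 52 lost their call with limma on log2(TPM + 1). In that setting surface markers had 2 higher genes in place of 5, hypoxia genes 2 in place of 4, imprinted genes 1 in place of 3 and FGF genes 1 in place of 2, and the glycolysis, DNA methylation and interferon lists had 0 calls in place of 1.

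Libraries of the same number did not deviate together over all genes (correlation -0.0164 between day 6 and day 9). Whether they share an embryo, culture or batch is not known from this value. With the replicate block 983 genes were higher and 518 lower, and Cdkn2a changed sign at a log2 fold change of -0.000854.

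Some genes without a call changed sign. Cdkn2a was at -0.00112 with no filter, and at -0.0827 and -0.0842 with limma. Cdkn1a was at -0.0813 and -0.0823 with limma, and Fut9 at 0.00762 under the stricter filter. With 1 library left out, Cdkn2a ranged from -0.0468 to 0.0401, Fut9 from -0.0989 to 0.0457, Trp63, with few reads, from -0.101 without day 6 replicate 1 to 1.04 without day 6 replicate 2, and Thy1 from -0.264 to 0.0090.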

Other observations

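Of 4277 tested genes without a coding annotation 136 were higher at day 9 (3.18%) and 67 lower (1.57%), below the shares of 5.18% and 2.68% over all tested genes. With a minimum of 10 CPM in the higher group these became 28 and 7. Of the 28 higher ones 15 (53.6%) carried the biotype TEC, a class of transcripts still to be tested experimentally, against 45 of the 480 non-coding genes tested at that level (9.38%). The TEC gene RP24-390N7.1 (chromosome 5, 60803716 to 60807706, GRCm38) was at 342 and 326 CPM at day 6 and 1248 and 1223 CPM at day 9 (log2 fold change 1.89, SE 0.0443, edgeR adjusted p 1.67e-12). Gm29084, annotated antisense inside Pard3b, was at 135 and 131 CPM at day 6 and 614 and 646 CPM at day 9 (log2 fold change 2.25, SE 0.0531, edgeR adjusted p 1.76e-12), while Pard3b itself had a log2 fold change of -0.63. RP24-155C13.7 lies within Dph5 on the same strand and was at 26.6 and 28.2 CPM at day 6 and 167 and 157 CPM at day 9 (log2 fold change 2.56), and Dph5 itself changed by 0.09 on that scale. Gm37375 and Gm37385, on chromosomes 9 and 1, had nearly the same values in every library (13.4 and 13.97 CPM at day 6 for both), and their reads cannot be assigned to one of the loci here. Values of genes that overlap or repeat others are uncertain, since reads can be divided between them. Besides H19, the lower genes at this level included Dnm3os, the antisense host of a microRNA cluster, at 11.4 and 12.7 CPM at day 6 and 5.40 and 4.67 CPM at day 9 (log2 fold change -1.27, SE 0.0856, edgeR adjusted p 4.62e-08).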
